A study of Rattus norvegicus with 2 samples.

Results

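Monocytes and neutrophils of skeletal muscle were examined in single-cell RNA-seq (scRNA-seq) data from 1 rat-mouse chimera and 1 Sprague-Dawley (SD) rat. A barcode was taken as a member when it held at least 1 unique molecular identifier (UMI) of Tyrobp, a signalling adaptor of myeloid cells, and UMIs of at least 3 of 8 genes, namely S100a8, S100a9, Csf3r, Fpr2, G0s2, Il1b, Plac8 and Il1r2. It also had fewer than 5 summed UMIs of C1qa, C1qb and C1qc, the complement genes of tissue macrophages, and no UMI of Cd3e, Cd79a or Pdgfra, which mark T cells, B cells and fibroblast-like cells. This gave 553 members among the 21154 barcodes that passed the filters. Of these, 370 were rat barcodes of the chimera, 47 were mouse barcodes of the chimera and 136 were SD rat barcodes. These genes chose the members, so their levels are given as a description.

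The chimera was an SD rat host that had received gene-edited Dmd mdx; Pax7-nGFP mouse induced pluripotent stem cells (iPSCs) as a morula, so that its muscle held cells of both species. The SD rat was the control. In both animals skeletal muscle from the whole body was digested with collagenase II, live cells were sorted with Calcein Violet, and droplet libraries were prepared with a 10x Genomics kit. The age of the animals is not given in the sources used here, and the chimera was 1 of several produced. With 1 animal and 1 library a group, differences were set against counting error and not against a spread between animals. Effects of the animal, the digestion, the library and the mapping reference cannot be told apart. All intervals are exact 95% intervals of counting error only. UMIs of 1 cell are not independent of each other, so a gene that is high in few barcodes varies more than its interval shows.

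Monocytes and neutrophils are both made in bone marrow and reach muscle through the blood. Neutrophils are short-lived, carry granules and little RNA, and hold large amounts of the calcium-binding proteins S100a8 and S100a9. Monocytes depend on the receptor Csf1r. The classical kind carries Ccr2 and enters inflamed tissue, and the non-classical kind, marked by Spn (CD43), Nr4a1 and Cx3cr1, patrols vessel walls. In rats the Spn-high kind is the larger one in blood. Both cell types share receptors for bacterial peptides, interleukin-1 genes and the adaptor Tyrobp.

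The chimera library held 118872850 UMIs and the SD rat library 70957559. Members had a median of 5584 UMIs in the chimera rat barcodes, 11869 in the chimera mouse barcodes and 5319 in the SD rat. A chimera barcode was called rat with at most 20% of its UMIs on mouse genes and mouse with at least 80%, and another 23 barcodes that met the marker rule lay in between and were left out. The libraries shared 43 barcode sequences, and no such barcode was a member in both. Scrublet marked 10, 0 and 1 members of these 3 populations as doublets.

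The data went against the label for most members, since the defining neutrophil genes were found in few of them. Cxcr2, the chemokine receptor of neutrophils, was detected in 6.76% of the chimera rat members and 19.1% of the SD rat members. Retnlg, a neutrophil secreted protein, was detected in 6 of 370 and 15 of 136, and the granule collagenase Mmp8 in 6 and 19. Cxcr1 had no UMI in any member. Csf1r was detected in 81.6% and 68.4%, and in 59.6% of the mouse members. The rat members were therefore mainly monocyte-like barcodes, with a smaller neutrophil-like group and some barcodes that carried dendritic cell genes. By the gates described below, 48.9% of the mouse members were monocyte-like and 40.4% dendritic-like.

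Among the genes of the rule, Il1b, Plac8 and G0s2 brought in most members. Il1b, which encodes interleukin-1 beta, was detected in 97.8% of the chimera rat, 94.1% of the SD rat and 97.9% of the mouse members. Plac8, a small myeloid protein, was found in 93.5%, 79.4% and 93.6%. G0s2, an inhibitor of fat breakdown that neutrophils and monocytes express strongly, was found in 89.2% and 86.0% of the rat members but in 19.1% of the mouse members. S100a9 was found in 9.46%, 34.6% and 19.1%. Fibroblast barcodes, which should lack these transcripts, had an Il1b UMI in 6.89% of the chimera rat and 2.25% of the SD rat barcodes, at medians of 12661 and 11392 UMIs. For G0s2 the fibroblast shares were 34.4% and 16.8%, and 39.0% in the mouse fibroblasts, so the 19.1% of the mouse members was at background. G0s2 stood at 115 CPM (UMIs per 1000000) in the mouse members and 148 in the mouse fibroblasts. At 500 UMIs per barcode, G0s2 was found in 66.8% of the chimera rat members against 2.92% of their fibroblasts.

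Many members lay at the edge of the rule. Exactly 3 of the 8 genes were detected in 158 chimera rat, 30 mouse and 46 SD rat members. Another 80, 46 and 39 barcodes met all other conditions with exactly 2 genes. On the C1q condition the edge was empty, with 1 chimera rat member at 4 summed UMIs and 1 excluded chimera rat barcode at 5.

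Members were grouped by gates that were set after the values had been seen. Barcodes with at least 10 summed UMIs of S100a8 and S100a9 and no Csf1r UMI were called neutrophil-like. Others with a UMI of Flt3, Ccr7, Xcr1, Clec9a or Cd209a were called dendritic-like. The remaining barcodes with Csf1r were called Vcan monocyte-like when they carried Ccr2, or Fn1 and Vcan together, and Spn monocyte-like otherwise. In the chimera rat members these groups held 22, 27, 70 and 218 barcodes, in the SD rat members 29, 5, 34 and 58, and in the mouse members 5, 19, 17 and 6. In no group were 33 chimera rat and 10 SD rat members.

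**Figure D1:**
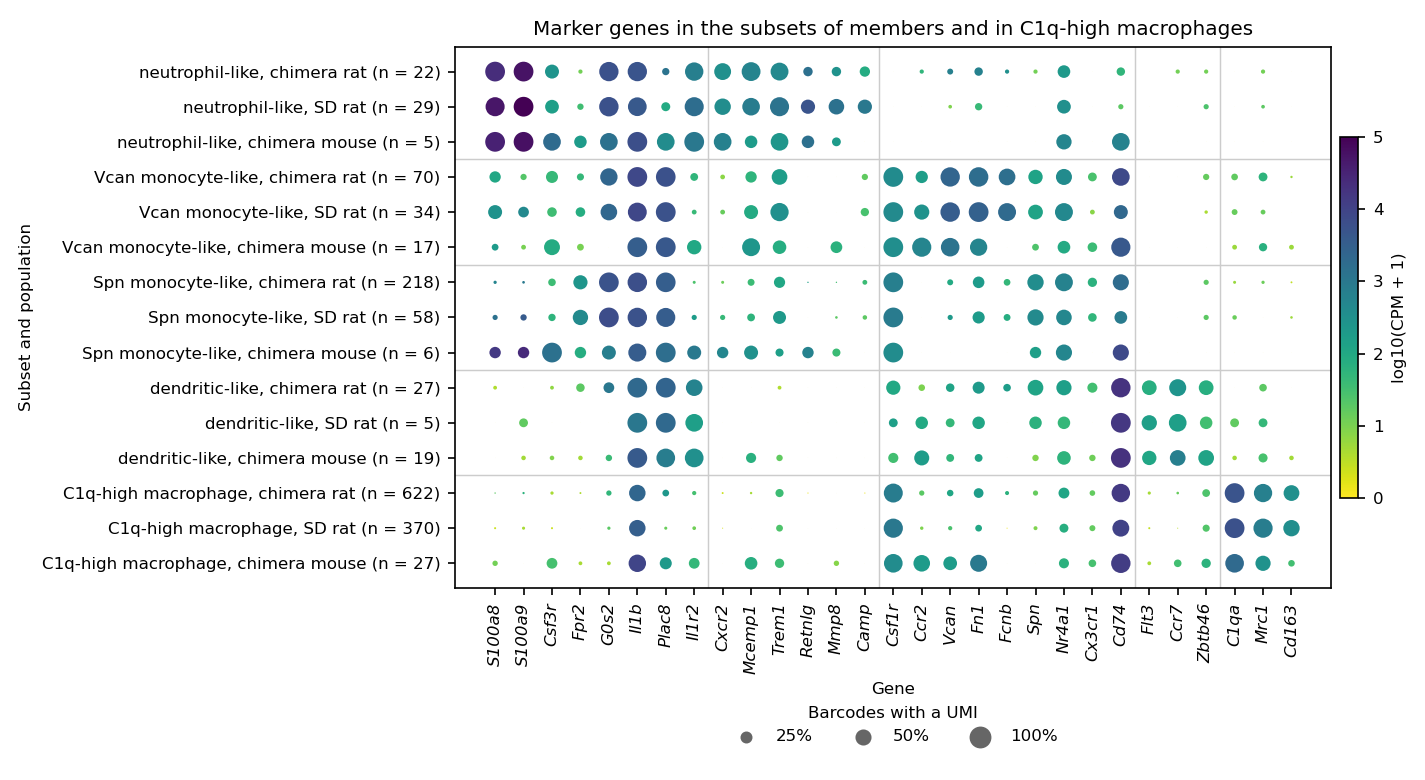
Marker genes (columns) in the neutrophil-like, Vcan monocyte-like, Spn monocyte-like and dendritic-like members and in C1q-high macrophage barcodes, which held Tyrobp and at least 5 C1q UMIs, with a row for each of the chimera rat, SD rat and chimera mouse populations. Dot size gives the percentage of barcodes with a UMI and colour gives log10 of CPM + 1. Cxcr2 was found in 72.7% of the chimera rat and 69.0% of the SD rat neutrophil-like barcodes, against 2.29% and 6.90% of the Spn monocyte-like ones.

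Genes that the gates did not use followed the groups. In the neutrophil-like barcodes Cxcr2 was found in 72.7% of the chimera rat and 69.0% of the SD rat barcodes, and Mcemp1, a mast cell and neutrophil membrane protein, in 90.9% and 79.3%. Trem1, a receptor that amplifies inflammation, was found in 81.8% and 93.1% of them. Spn was found in 68.3% and 67.2% of the Spn monocyte-like barcodes and in 4.55% and 0% of the neutrophil-like ones. The Vcan monocyte-like group also carried Spn, in 52.9% and 55.9% of its barcodes, so detection of Spn did not part the monocyte groups. By level Spn was at 125 against 375 CPM in the chimera rat and 126 against 415 in the SD rat, Vcan against Spn kind. Whether the monocyte groups form a range or separate types was not tested. Zbtb46, a transcription factor of dendritic cells, was found in 55.6% and 40.0% of the dendritic-like barcodes and in 6.88% and 6.90% of the Spn monocyte-like ones. Neutrophil-like barcodes were shallow, with medians of 2689.5 UMIs in the chimera rat and 3556 in the SD rat, and Vcan monocyte-like barcodes were deep, with 11122 and 10014. The Spn monocyte-like medians were 5162 and 4438, and a deeper barcode has more chance of showing Ccr2 or Fn1 and Vcan. The dendritic-like medians were 13685 and 15051, so Zbtb46 was compared at unlike depths, and only 5 SD rat barcodes were dendritic-like.

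Members made up 4.36% (3.94 to 4.82) of the 8477 chimera rat barcodes, 2.53% (1.86 to 3.34) of the 1861 chimera mouse barcodes and 1.51% (1.27 to 1.79) of the 8980 SD rat barcodes. As a share of barcodes with Tyrobp the values were 21.1% (19.2 to 23.1), 18.4% (13.8 to 23.7) and 14.1% (12.0 to 16.5). The chimera rat and SD rat intervals did not overlap on either scale. The direction was not particular to members. Of the same 8477 and 8980 barcodes, 1751 and 963 held Tyrobp, and 622 and 370 were C1q-high macrophage barcodes. The chimera rat total leaves out 1836 filtered chimera barcodes without a species, and the SD rat total has no such step. A stricter species call moved the chimera rat share, as given at the end. G0s2 and Il1b were also found in more fibroblast barcodes of the chimera rat than of the SD rat, as given above. Of members with exactly 3 rule genes, 79.1% in the chimera rat and 65.2% in the SD rat held G0s2. The part of such background UMIs in the member shares was not tested.

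The groups of members did not share the difference between chimera rat and SD rat equally. Spn monocyte-like barcodes made up 2.57% (2.25 to 2.93) of the chimera rat and 0.646% (0.491 to 0.834) of the SD rat barcodes. Vcan monocyte-like barcodes made up 0.826% (0.644 to 1.04) and 0.379% (0.262 to 0.529), and dendritic-like barcodes 0.319% (0.210 to 0.463) and 0.0557% (0.0181 to 0.13). For neutrophil-like barcodes the shares were 0.26% (0.163 to 0.393) and 0.323% (0.216 to 0.463), with overlapping intervals, so no difference was detectable at these numbers of barcodes. Within the members, the neutrophil-like share was 5.95% (3.76 to 8.86) in the chimera rat and 21.3% (14.8 to 29.2) in the SD rat. With every barcode thinned to 500 UMIs it was 5.14% (3.12 to 7.90) and 18.4% (12.3 to 25.9).

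**Figure D2:**
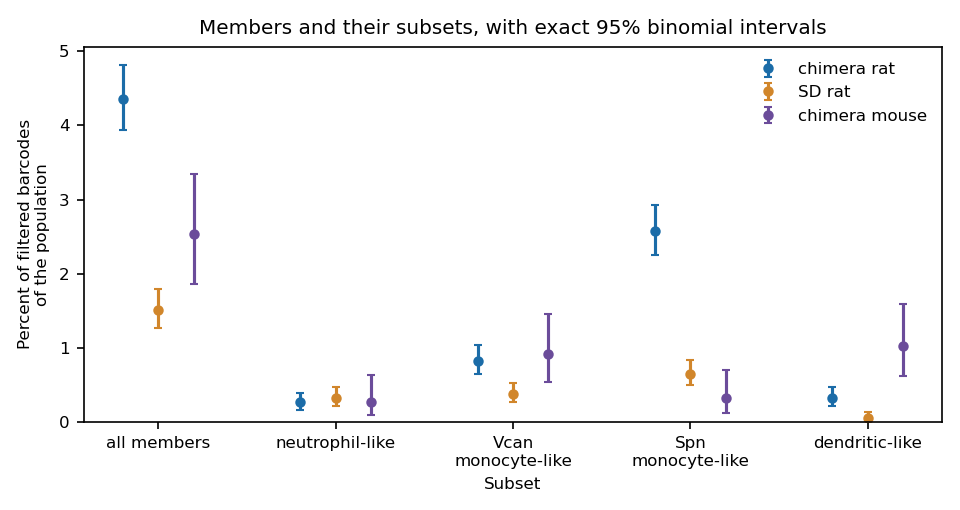
Members and their 4 marker-defined groups as a percentage of all filtered barcodes of the chimera rat, chimera mouse and SD rat populations. Points are shares and bars are exact 95% binomial intervals of 1 library each. All members stood at 4.36%, 2.53% and 1.51%, while the neutrophil-like shares of 0.26%, 0.269% and 0.323% overlapped.

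In the chimera, 11.3% (8.40 to 14.7) of the 417 members were mouse barcodes. Among all other filtered barcodes with a species the share was 18.3% (17.5 to 19.1), and among C1q-high macrophage barcodes, which carried Tyrobp and at least 5 C1q UMIs, it was 4.16% (2.76 to 6.0). Among all barcodes with Tyrobp, members included, it was 12.8% (11.3 to 14.3), and this interval overlapped that of the members. Within them the mouse share was 41.3% (27.0 to 56.8) of the dendritic-like barcodes, 19.5% (11.8 to 29.4) of the Vcan monocyte-like and 18.5% (6.30 to 38.1) of the neutrophil-like barcodes. It was 2.68% (0.989 to 5.74) of the Spn monocyte-like barcodes, and for these 6 mouse barcodes the name is doubtful. All 6 carried Csf3r, the receptor for granulocyte colony-stimulating factor, 2 carried S100a9, and Spn was found in 33.3%. Exactly 3 rule genes were carried by 30 of the 47 mouse members, against 158 of 370 in the chimera rat and 46 of 136 in the SD rat.

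The levels of the rule genes were compared between chimera rat and SD rat members in CPM, with rat and mouse rows of a gene added. S100a8 stood at 1226 CPM in the chimera rat and 8613 in the SD rat members, and S100a9 at 2852 and 19615. Their log2 ratios were -2.81 and -2.78. Il1r2, the decoy receptor for interleukin-1, stood at 159.7 and 352 CPM. By contrast Il1b was at 5848 and 5866 CPM, with a ratio of 0.997 (0.964 to 1.03), and Fpr2 at 134 and 163, with a ratio of 0.821 (0.665 to 1.02). G0s2, at 3657 and 3891 CPM, and Plac8, at 3792 and 3578, had ratios of 0.94 and 1.06. The neutrophil-like gate uses S100a8 and S100a9, so its share and these sums are not separate observations.

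Over all 5953 genes with at least 50 UMIs in these members, 304 were at least 2-fold higher in the chimera rat members (5.11%) and 149 at least 2-fold lower (2.50%), with a median log2 ratio of 0.06. Lists of genes were counted from 20 UMIs upward, where the median over all genes was 0.08. A list gene past 2-fold was counted only when its interval left out equal levels. The counts over all genes did not ask for this, so the shares follow unlike rules. Of 9 neutrophil markers measured, 8 were at least 2-fold lower and none higher, with a median of -1.86. Trem1 was at 116 against 379.7 CPM (ratio 0.304, 0.257 to 0.361), Cxcr2 at 20.3 against 73.9 (0.275, 0.182 to 0.412) and Mmp8 at 26.5 against 213. The ninth, the protease inhibitor Slpi, was at 488 against 868 CPM. Granule protein genes were lower in 5 of 8, with the lysozyme gene Lyz2 at 13648 against 18427 CPM among those within 2-fold. The complement receptor gene C5ar2 was at 56.0 against 178 CPM.

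Genes induced by interferon were lower in 5 of 11, with a median of -1.01. Within the neutrophil-like barcodes the list median was 0.01 and within the monocyte-like barcodes -0.12. Ifit3 was far higher in neutrophil-like than in monocyte-like barcodes, as given below, and the neutrophil-like share of members differed. The part of that share in these sums was not tested. Ifit3 was at 90.0 against 525 CPM (ratio 0.171, 0.144 to 0.203), the transcription factor Irf7 at 48.5 against 139.9 and Ifit2 at 33.5 against 79.0. The membrane protein gene Ifitm1 of the same list was at 2698 against 1359 CPM, on the other side. Cytokine and chemokine genes were higher in 2 of 17 and lower in none, with a median of -0.17. The 2 were Ccl4, at 399 against 121 CPM (ratio 3.31, 2.67 to 4.15), and Il10, the anti-inflammatory interleukin, at 122 against 51.8. Ccl3, Cxcl1 and Cxcl2, which attract monocytes and neutrophils, lay within 2-fold, as did all 13 myeloid transcription factors and all 8 survival genes measured. The NADPH oxidase genes, which make reactive oxygen, were lower in 1 of 7, Ncf1. Among pattern recognition genes 2 of 17 were lower, Trem1 and the lectin Clec4e.

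Cd74, the invariant chain of MHC class II, was at 6677 CPM in the chimera rat and 3153 in the SD rat members (ratio 2.12, 2.03 to 2.21) and was detected in 67.8% and 36.8% of them. Fibroblasts, which should lack it, carried a Cd74 UMI in 21.6% and 8.01% of barcodes. At 500 UMIs per barcode Cd74 was found in 31.4% of the chimera rat and 19.1% of the SD rat members, against 0.925% and 0.225% of the fibroblasts. Of 9 antigen presentation genes 1 was higher, Cd74, and 1 lower, Ciita. Ciita had few UMIs, 11 in the chimera rat and 16 in the SD rat members (ratio 0.251 with rat rows alone). Cx3cr1, the fractalkine receptor, was at 44.5 against 18.1 CPM, with 19.8% of its chimera rat UMIs on the mouse row. Monocyte markers as a list were higher in 2 of 12 and lower in 1, Ccr2, at 50.3 against 128 CPM. Of 6 cell cycle genes 4 were higher, among them Stmn1 at 183 against 29.8 CPM, with 1 barcode holding 106 of its chimera UMIs.

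The highest ratios moved with the mapping reference. By the naming rule these genes were Lars2, Mcmdc2, Gphn, Cfap74, Hmgb1, Cmss1, Nmnat2, Rpl35a, Frmd5 and Bicd1, and between 91.6% and 100% of their chimera rat UMIs lay on the mouse row of the gene. Only the chimera library was mapped with mouse rows. With rat rows alone Cmss1, at a ratio of 21.9 with both rows, had a ratio of 1.36, and Lars2, at 105, had 0.73. Of the 5953 genes, 2573 (43.2%) had over 5% of their chimera rat UMIs on the mouse row. S100a8 had 9.28% and S100a9 6.82% there, and their log2 ratios with rat rows alone were -2.85 and -2.78.

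The 10 lowest ratios were those of Hs6st3, Atp13a4, Glis1, Nell1, Prok2, Pglyrp1, S100a9, Ifit3, Tnnc1 and Dgat2. Hs6st3, a heparan sulfate modifying enzyme, had 5 UMIs in the chimera rat and 558 in the SD rat members, where 87.5% of barcodes carried it. Of the 5 UMIs 4 lay on the mouse row, and the part of the mapping reference in the lowest ratios was not tested. Prok2, a secreted protein of neutrophils, was at 25.6 against 187 CPM, and Pglyrp1, a granule protein that binds bacterial cell walls, at 30.0 against 207. RNA of other cells also differed between the libraries. Col1a1, a collagen gene of fibroblasts, was at 779.8 against 6316 CPM, but 5 SD rat barcodes held 93.8% of its UMIs there, and its part in the other differences was not tested. Over 2% of UMIs lay on fibroblast, endothelial and muscle fibre markers in 6.49% of the chimera rat and 13.2% of the SD rat members. The muscle actin gene Acta1 was found in all rat members, at 5205 and 5772 CPM.

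**Figure D3:**
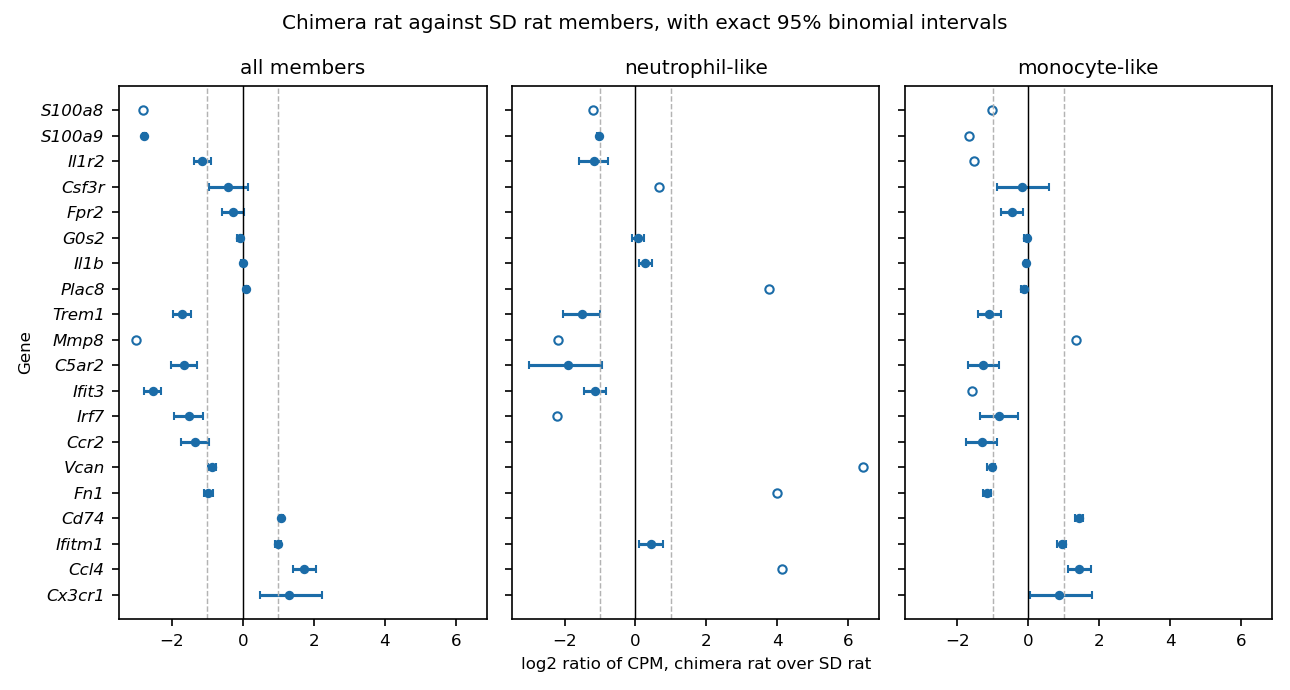
Log2 ratio of CPM, chimera rat over SD rat, for named genes in all members, in neutrophil-like barcodes and in monocyte-like barcodes. Bars are exact 95% intervals of counting error, open circles mark genes with over 20% of the UMIs of the higher group in 1 barcode (no interval drawn) and dashed lines mark 2-fold. S100a9 lay at -2.78 in all members and at -1.04 in the neutrophil-like barcodes, and Cd74 lay at 1.08 in all members.

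Within the neutrophil-like barcodes, 22 of the chimera rat and 29 of the SD rat, the comparison no longer rested on how many there were. S100a9 was at 57944 against 118861 CPM (ratio 0.487, 0.472 to 0.503) and S100a8 at 22736 against 52490 (0.433, 0.412 to 0.455). Per barcode, S100a8 and S100a9 together took a median of 6.38% of UMIs in the chimera rat, from 0.150% to 30.6%, and 13.2% in the SD rat, from 0.252% to 46.2%. The ranges overlapped over most of their length. In the 5 mouse neutrophil-like barcodes the share ran from 2.73% to 20.5%, with a median of 3.97%. The gate used these genes, so their levels describe the barcodes it chose.

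With at least 50 UMIs required, 617 genes could be compared in these barcodes, of which 110 (17.8%) were at least 2-fold higher and 55 (8.91%) lower in the chimera rat. Of 9 neutrophil markers 6 were lower and none higher, with a median of -1.52 against 0.04 over all genes tested. Trem1 was at 433 against 1236 CPM (ratio 0.351, 0.242 to 0.499), in 81.8% and 93.1% of barcodes. C5ar2 was at 116 against 437 (0.266, 0.125 to 0.516) and Pglyrp1 at 444 against 1286 (0.345, 0.239 to 0.488). Il1r2 was at 739.9 against 1682 (0.44, 0.330 to 0.580), and the transcription factor Klf2 at 793 against 2043. Mmp8 and Retnlg were found in 22.7% of the chimera rat barcodes each, and in 62.1% and 51.7% of those of the SD rat. Cxcr2 was within 2-fold, at 317 against 362 CPM. Interferon-induced genes were lower in 4 of 10 and higher in 1, Gbp2, with a median of 0.01. Ifit3 was at 1321 against 2909 CPM and Irf7 at 95.1 against 437, while Ifitm1 was at 1585 against 1169.

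Several high ratios in the neutrophil-like barcodes came mostly from 1 chimera barcode per gene. The highest barcode of each gene held 102 of 119 Plac8 UMIs, 60 of 67 Vcan UMIs, 55 of 63 Fn1 UMIs and 133 of 161 Col1a1 UMIs. For Hsp90aa1, a chaperone, it was 145 of 162, and whether these genes shared 1 barcode was not counted. UMIs of such barcodes also enter the total that the lower ratios rest on, and their part there was not tested. The genes without such a barcode that were highest by the naming rule were Ninj1, Atf4, Ifitm1, Lyn and Fth1, with ratios from 1.25 to 1.73, all under 2-fold.

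Among the monocyte-like barcodes of both kinds, 288 of the chimera rat and 92 of the SD rat, 5006 genes were compared, with 223 (4.45%) at least 2-fold higher and 81 (1.62%) lower in the chimera rat. Cd74 was at 4225 against 1566 CPM (ratio 2.70, 2.51 to 2.90), in 69.8% and 44.6% of barcodes. It was higher in each kind, with 8044 against 2124 CPM in the Vcan and 1796 against 851 in the Spn monocyte-like barcodes. In the Spn kind alone 172 of 3609 genes (4.77%) were at least 2-fold higher and 78 (2.16%) lower, and in the Vcan kind alone 142 of 2841 (5.00%) and 64 (2.25%). Of Cd74 UMIs in the chimera rat members 0.159% lay on the mouse row. RT1-Da, a rat MHC class II gene, was found in 58.6% against 32.4% of the Vcan and in 21.6% against 12.1% of the Spn monocyte-like barcodes. Antigen presentation genes other than Cd74 lay within 2-fold, so 1 of 8 was higher and none lower. Ccl4 was at 479 against 176 CPM, in 13.5% and 6.52% of barcodes.

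Of 11 monocyte markers 3 were lower in these barcodes and 1, Cd74, was higher, with a median of -0.03. The 3 were Ccr2, Vcan and Fn1, which set the gate of the Vcan kind, and that kind made up 70 of the 288 chimera rat and 34 of the 92 SD rat barcodes compared. Ccr2 was at 63.9 against 159 CPM (ratio 0.402, 0.299 to 0.543), Vcan at 1020.0 against 2089 and Fn1 at 771 against 1723. Slpi was at 177 against 446, C5ar2 at 65.8 against 157 and Trem1 at 128 against 272. Cd2, an adhesion molecule best known from T cells, was at 9.74 against 107 CPM, in 4.51% and 27.2% of barcodes. Within the Vcan kind alone Ccr2 was at 164 against 283 CPM and Vcan at 2480.4 against 3556, so both lay within 2-fold. S100a9 was at 599 against 1911 CPM, but 1 chimera barcode held 890 of its 983 UMIs.

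Granule protein genes were lower in 3 of 6 in the monocyte-like barcodes, with a median of -0.87 against 0.05 over all genes tested. Chemotaxis receptors were lower in 3 of 9 (C5ar2, Ccr2 and Cxcr2), with a median of -0.45, and neutrophil markers in 3 of 7 and higher in 1. The higher one was Retnlg, with 151 UMIs in the chimera rat, all in the Spn kind, and 0 in the SD rat. As given above, few chimera rat members carried Retnlg at all, so this ratio rests on very few barcodes. None of 13 myeloid transcription factors and none of 8 survival genes was past 2-fold, and cytokines were higher in 2 of 17 (Ccl4 and Osm) and lower in 1 (Ccl7). Interferon-induced genes were lower in 2 of 8, Ifit3 and Ifit2, with a list median of -0.12. The neutrophil-like gate left out barcodes with a Csf1r UMI. At least 10 S100a8 and S100a9 UMIs beside Csf1r were held by 3 chimera rat and 7 SD rat members. Their part in the higher Retnlg and in the lower Ifit3, Trem1, Slpi and Cxcr2 of the monocyte-like barcodes was not tested. Of the immediate early genes, which tissue digestion is known to raise, Fos was at 473 against 157 CPM, with 252 of its 777 chimera UMIs in 1 barcode and 35.8% of them on the mouse row.

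The groups of members were compared with each other within each rat population, and a gene was counted only when it passed 2-fold the same way in both. Neutrophil-like barcodes, against monocyte-like ones, had 120 of 2094 genes (5.73%) at least 2-fold higher and 298 (14.2%) lower. The highest were Pglyrp1, Ifit3, the fat synthesis enzyme Dgat2 and Il1r2. Ifit3 was at 1321 against 37.8 CPM in the chimera rat and at 2909 against 113 in the SD rat. Neutrophil markers were higher in 6 of 6, with Trem1 at 433 against 128 CPM in the chimera rat and 1236 against 272 in the SD rat. Cd74 was at 52.8 against 4225 and 16.8 against 1566 CPM. Cytokine and chemokine genes were lower in 6 of 12, among them Ccl2, Ccl7 and Cxcl1, and higher in 1, the interleukin-1 antagonist Il1rn. Nos2, which makes nitric oxide, was at 2241 against 1136 CPM in the chimera rat and 4145 against 791 in the SD rat, in 81.8% and 100.0% of the neutrophil-like barcodes. Muscle fibre markers, which neither cell type expresses, were also higher in 4 of 6, among them Acta1, beside the lower UMI totals of the neutrophil-like barcodes, and their part in the other differences was not tested.

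Between the monocyte groups, 87 of 1771 genes (4.91%) were at least 2-fold higher and 72 (4.07%) lower in the Vcan kind in both rat populations. Of 12 cytokine and chemokine genes 9 were higher. Cxcl1 was at 6693 against 558 CPM in the chimera rat and 4831 against 934 in the SD rat, and Ccl2 at 4001 against 144 and 5299 against 585. Il1b was at 8219 against 6152 and 8483 against 5541, within 2-fold. The highest genes by the naming rule were Fcnb, a soluble pattern recognition protein at 1541 against 47.8 and 1950.3 against 74.2 CPM, and Sdc4, a cell surface proteoglycan at 1198 against 67.8 and 1152 against 43.7. The lowest was the T cell coreceptor gene Cd8a, at 42.3 against 303 and 27.3 against 258 CPM, followed by the formyl peptide receptors Fpr3 and Fpr2. G0s2 was at 2344 against 5369.6 and 2244 against 6939.

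Dendritic-like barcodes, against monocyte-like ones, had 46 of 1940 genes (2.37%) at least 2-fold higher and 344 (17.7%) lower in both rat populations, with only 5 such barcodes in the SD rat. Cd74 was at 18415 against 4225 CPM in the chimera rat and 15679.7 against 1566 in the SD rat. Of 13 cytokine and chemokine genes 10 were lower, with Ccl3 at 572 against 3778 and 15.5 against 4647, and so were 9 of 13 pattern recognition genes. Cybb, the catalytic subunit of the NADPH oxidase, was at 92.4 against 630.2 and 61.9 against 766. These barcodes entered the rule through few genes, since Il1r2 was found in 70.4% and in 4 of 5 of them and S100a9 in none and 1. Exactly 3 rule genes were detected in 77.8% and 100.0%.

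The members were also compared with the C1q-high macrophage barcodes, 622 of the chimera rat and 370 of the SD rat. With the rule genes and C1q genes left out, 453 of 6134 genes (7.39%) were at least 2-fold higher in members in both rat populations and 586 (9.55%) were lower. Among the highest were S1pr4, a sphingosine phosphate receptor of leukocytes, and the defensin Defb14. S1pr4 was at 46.8 against 0.835 CPM in the chimera rat and 79.0 against 0.380 in the SD rat. Others were Gjb2, Fpr3, Sorl1, P2ry10, Angpt1, Trem3 and Mal. Lowest were Fcmr, F13a1, the haemoglobin scavenger receptor Cd163, and Ltc4s, which makes leukotriene C4. Cd163 was at 2.21 against 329.7 and 1.30 against 349, and Selenop, a selenium transport protein, at 82.5 against 5627 and 105 against 7062.

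By list, neutrophil markers were higher in members in 7 of 7, macrophage markers lower in 6 of 8, and granule protein genes higher in 4 of 5. Of 11 adhesion and Fc receptor genes 6 were higher, among them the integrins Itgal, Itgax and Itgb2. Cytokine and chemokine genes were lower in 11 of 17 and higher in none, with Cxcl2 at 2377 against 12489 CPM in the chimera rat and 2889.7 against 23150 in the SD rat. Il1b, a rule gene, was at 5848 against 2388 and 5866 against 3182. Immediate early and heat shock genes were lower in 6 of 10, among them Egr1, Fosb and Dnajb1. Muscle fibre markers passed 2-fold in neither direction in 6 of 6.

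**Figure D4:**
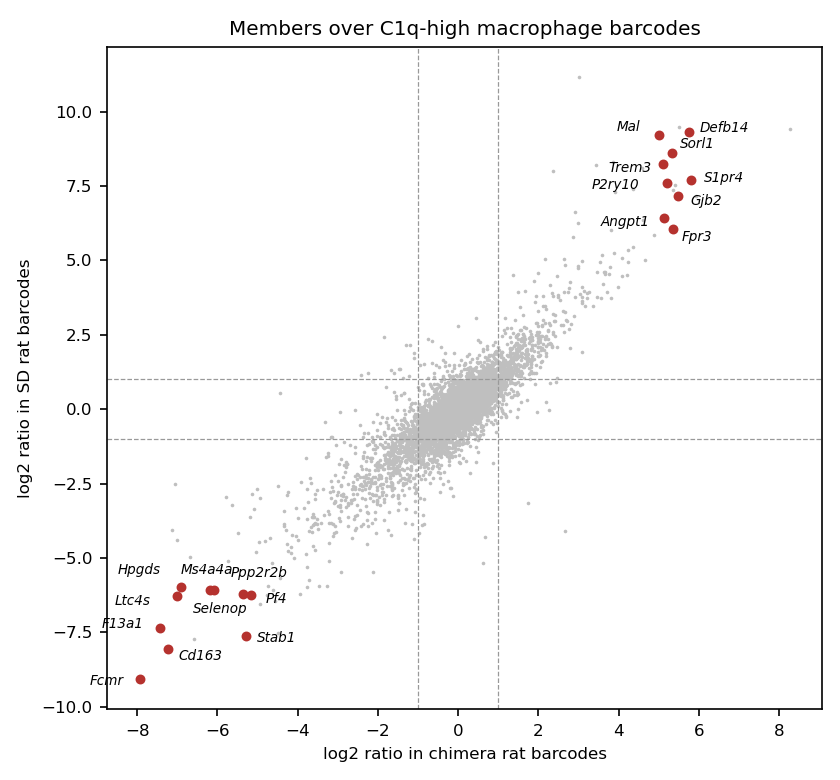
Log2 ratio of CPM in members over C1q-high macrophage barcodes for each tested gene, in the chimera rat (x axis) and in the SD rat (y axis), with named genes in red. Genes at least 2-fold higher in both (453) lie in the upper right and genes at least 2-fold lower in both (586) in the lower left.

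The mouse members were compared with the rat members of the same library, which shared digestion and sequencing but not gene annotation. Of 8152 genes 1350 (16.6%) were at least 2-fold higher and 1880 (23.1%) at least 2-fold lower in the mouse members, so a 2-fold difference was common here. Dendritic cell markers were higher in 6 of 7, with a median of 3.17 against -0.08 over all genes. The mouse members also held the larger dendritic-like share, 40.4% (26.4 to 55.7) against 7.30% (4.86 to 10.4). Ccr7, the receptor that guides dendritic cells to lymph nodes, was at 354 against 39.3 CPM, and Irf8, a transcription factor of dendritic cells and monocytes, at 241 against 21.6. Ccr2 was at 311 against 50.3 CPM, in 57.4% against 8.65% of members, and Spn at 21.4 against 241. Cytokine and chemokine genes were lower in 9 of 17, with Ccl3 at 146 against 3021 CPM and Cxcl1 at 229.6 against 2469.

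The lowest gene by the naming rule was Nos2, with 1 UMI in the mouse members against 2224 in the chimera rat members, where 40.8% of barcodes carried it. In the SD rat 47.8% of members carried Nos2. The next were Fxyd2, Akr1b8, Atp6v1fnb and Angpt1, each with 1 mouse UMI. The highest was Cd52, a small glycoprotein of leukocytes, at 2263 against 3.53 CPM, followed by Arhgap30, Glp2r, Rpl37 and Gtf2f1. Rpl37, a ribosomal protein gene, was at 4766 against 26.5 CPM and had no UMI in the SD rat members, and the part of the gene annotation in these ratios was not tested. G0s2 was at 115 against 3657 CPM and Csf3r at 187 against 40.6. B2m, the light chain of MHC class I, was at 2894 against 8864 CPM.

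Many of these differences were also found within the groups. In the monocyte-like barcodes, 23 mouse against 288 rat, 1189 of 7072 genes (16.8%) were higher and 1553 (22.0%) lower. Cytokine and chemokine genes were lower in 11 of 17 and higher in 3, with Ccl3 at 186 against 3778 CPM, Cxcl1 at 236 against 2944, and Ccl9 at 477 against 26.8. Ccr2 was at 481 against 63.9 CPM (ratio 7.52, 5.72 to 9.90), in 69.6% against 9.38% of barcodes. The mix of kinds differed, since the Vcan kind, whose gate uses Ccr2, made up 17 of the 23 mouse and 70 of the 288 rat barcodes. Within the Vcan kind Ccr2 was at 541 against 164 CPM. Interferon-induced genes were higher in 5 of 9 and lower in 3, with Ifitm3 at 4516 against 162 CPM and Isg15 at 127 against 3.65. Granule protein genes were higher in 6 of 9, but 1 mouse barcode held 124 of 127 Prtn3 UMIs and all 31 Elane UMIs. Cell cycle genes were higher in 7 of 7, and here too 1 barcode held 85 of 87 Top2a UMIs and 37 of 40 Mki67 UMIs.

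In the dendritic-like barcodes, 19 mouse against 27 rat, 796 of 4008 genes (19.9%) were higher and 815 (20.3%) lower. Xcr1, the chemokine receptor of cross-presenting dendritic cells, was found in 42.1% of the mouse and 7.41% of the rat barcodes, and Clec9a, their receptor for dead cells, in 47.4% and 14.8%. Ccr7 was found in 63.2% and 74.1% and Flt3 in 52.6% and 55.6%. These genes set the gate, so their levels are a description. Zbtb46, which the gate did not use, was found in 63.2% and 55.6%. The costimulatory gene Cd86 was at 668 against 188 CPM and Irf8 was found in 63.2% and 22.2% of barcodes. Endothelial markers were lower in the mouse barcodes in 6 of 6, where 1 rat barcode held 443 of 486 Fabp4 UMIs and 72 of 75 Emcn UMIs. At least 2 of the 5 dendritic genes of the gate were found in 89.5% of the mouse and 40.7% of the rat barcodes.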

How the data were processed

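The authors deposited raw UMI counts per gene and barcode, not normalized, made with Cell Ranger 7.1.0 per the labels on mRatBN7.2 and GRCm39. The chimera table holds 23373 rat genes, 25906 mouse genes and an EGFP row, and the SD rat table the same 23373 rat genes. A rat read that matches a mouse gene better leaves its rat row in the chimera table only, so rat and mouse rows of the 16235 symbols present in both were added. The filters asked for 500 UMIs, 200 genes and at most 20% of UMIs on 13 mitochondrial protein genes per species, which left 12174 of 13299 and 8980 of 10117. The chimera's median barcode had 7407 UMIs and the SD rat's 5373. Doublets were scored with Scrublet in scanpy 1.11.5 (expected rate 8%), which marked 444 and 164 barcodes. They were left out only as an alternative.

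CPM are UMIs per 1000000 UMIs on shared symbols, summed over barcodes. With 1 library per group no test was made. Ratios carry exact binomial intervals, shares Clopper-Pearson intervals (95%, counting error only), and a gene counted as different at 2-fold. In the lists of the chimera rat against SD rat and mouse against rat comparisons, the interval also had to exclude a ratio of 1. A population with no UMI of a gene was set to 3 counts. Genes needed 50 summed UMIs, or 20 in lists and in the comparison of mouse with rat members. Named were the rule genes, list members past 2-fold or among the 4 highest, and the 10 (5 for mouse against rat and for some groups) most different genes found in at least 10% of the higher group with no barcode above 20% of its UMIs. Groups among the members, genes held by single barcodes, RT1-Da and Nos2 in the rat groups were chosen after values were seen. 1 gene of the lists is not reported here. Thinning drew 500 UMIs per barcode. Ratios were tested on simulated data. Members and lists were chosen with earlier results of these data known. Python 3.11.15, numpy 2.4.6, scipy 1.17.1 and pandas 2.3.3 were used.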

Additional observations from a re-analysis of the deposited data

How the results depend on the processing

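No paired analysis was possible because each group is 1 library, and for the same reason no replicate could be left out. Of the alternatives on shares and counts, 106 moved a value by less than its counting interval, or a count by less than 1.5 times, and 21 moved it further. Asking for 4 or more rule genes gave members as 2.50% of chimera rat, 0.913% of chimera mouse and 1.00% of SD rat barcodes, a mouse share of 7.42%, neutrophil-like shares of 10.4% in chimera rat and 31.1% in SD rat members, a dendritic-like share of 5.88% in mouse members, and 199 genes at least 2-fold higher. Calling species at 10% and 90% made members 9.21% of chimera rat barcodes. Genes at least 2-fold higher and lower numbered 140 and 91 with 10 CPM added, 61 and 55 with at least 200 UMIs, 137 and 75 without genes with over 5% of UMIs on the mouse row, and 110 and 55 in neutrophil-like barcodes, where fewer genes were tested, while 81 were lower in monocyte-like ones. Thinned to 500 UMIs, where Csf1r is often missed, monocyte-like shares were 21.1% in chimera rat and 20.6% in SD rat members, and the mouse dendritic-like share was 10.6%. For 38 named genes 428 of 533 log2 ratios moved by less than their interval, 104 moved further, and 1 reversed, Col1a1 at 1.30 in neutrophil-like barcodes. Gates at 5 or 20 S100a8 and S100a9 UMIs and leaving out members with over 2% of RNA of other cells were added after seeing the data. Depth limits rare genes in the 5 mouse and 22 chimera rat neutrophil-like barcodes most.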

Other observations

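Another 23 chimera barcodes met the marker rule but lay between the limits of 20% and 80% for a rat or mouse call, with a median of 59.1% of UMIs on mouse genes (20.1% to 79.5%). They had a median of 16135 UMIs and 4679 genes, against 5584 UMIs in rat and 11869 UMIs in mouse members, and Scrublet marked 2 of them as doublets. They made up 1.25% (0.796 to 1.87) of the 1836 filtered barcodes without a species.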
